A study of Mus musculus with 22 samples.

Results

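White adipose tissue (WAT) and striatum of mice labelled hypothyroid were set side by side before any thyroid hormone was given. The comparison took the 4 WAT libraries and the 2 striatum libraries labelled PTU, which are 6 of the 22 libraries of the series, and the 45097 gene symbols found once in the count tables of both tissues, with mitochondrially encoded genes left out. All 6 libraries are labelled as from wild-type C57BL/6J males aged 8 weeks that received PTU (propylthiouracil, a drug that blocks hormone synthesis in the thyroid gland) for 2 weeks. The other 16 libraries come from mice given thyroid hormone (TH), 6 h or 24 h before sampling for WAT and 12 h or 24 h for striatum, and of these the 8 libraries at 24 h were used for a repeat of the tissue contrast. Their labels name TH and the time and do not mention PTU. The PTU treatment of the striatum donors rests on the labels alone, since the study's own overview names PTU for WAT and some other tissues but no such procedure for striatum. The WAT depot is not stated.

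Thyroid hormone acts on a cell only after several steps. Membrane transporters carry thyroxine (T4) and the active hormone T3 into the cell, deiodinases then turn T4 into T3 or inactivate both, and T3 binds the nuclear receptors encoded by Thra and Thrb, which sit on DNA as dimers with retinoid X receptors (RXR) and exchange corepressors for coactivators. White fat stores and releases triglyceride and is a classical target of the hormone, whereas in brain T4 is converted locally, mainly in astrocytes, and the striatum is built of inhibitory projection neurons.

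Before hormone was given, large differences between the tissues lay in hormone transport, activation and binding rather than in the receptor genes Thra and Thrb. Striatum held more RNA of the transporter genes Slco1c1, Slco1a4 and Slc7a5, of the activating deiodinase gene Dio2 and of the T3-binding protein gene Crym. WAT held more RNA of the transporter gene Slc16a10, of Rxra, of the sulfotransferase gene Sult1a1 and of the thyrotropin receptor gene Tshr. Thra and Thrb were present in both, and Thra made up about the same share of their summed level. Around these genes lay the programs of the tissues, with lipid synthesis, lipid release and adipocyte genes in WAT and neuronal, astrocyte and myelin genes in striatum.

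The tissues differ in more than biology. Trizol was used to extract RNA from WAT and RNeasy columns for striatum, and the count tables of the tissues were made differently, so tissue, extraction and table cannot be told apart. For this reason a gene was called large only at an adjusted p under 0.05 in edgeR's quasi-likelihood test with Benjamini-Hochberg adjustment and a difference of at least 8-fold (3 on the log2 scale). Levels are normalised counts (scaled by TMM to a common library size), and every log2 difference is WAT minus striatum with its standard error. Of 18048 genes tested, 4172 were large with higher levels in WAT (23.1%) and 2436 with higher levels in striatum (13.5%), and the median difference over all genes was 0.44. Of the large genes, 63.1% were thus higher in WAT. With libraries scaled to reference genes the median of all genes shifted by -1.28 and this share was 43.0%, and with only genes that share little sequence with others it was 47.4%. Just inside the 8-fold limit lay Ssc5d, Mfap1b (62.5% of 50-base words shared with another gene), Snap47 and Vash1, and just outside it Clpx, C5ar1, Ankrd13b and Khdrbs3, all at 3.0 or -3.0. Nothing in the labels says that the libraries are from separate animals, so p-values measure only the spread between these libraries. An exact permutation test of 2 against 4 libraries cannot go below a two-sided p of 0.133.

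The share of genes called large in WAT was highest among genes that share much sequence. Among the 6076 genes of which no 50-base word occurs in another gene, 13.3% were large in WAT and 18.7% in striatum. The WAT share was 11.4% with up to 5% of words shared, 24.2% with up to 20% and 45.4% with up to 50%. Among the 1626 genes with over 50% of their words shared, 72.2% were large in WAT and 1.78% in striatum. Ribosomal protein genes, which have many pseudogene copies, were large in WAT for 70 of 80. Of the 11526 genes with little shared sequence (at most 5% of words and at most 5% of exon bases shared with another gene, and no row that copies another), 12.4% were large in WAT and 17.4% in striatum. The share of words is given below beside each gene named for a large excess in WAT where it exceeds 5%, and its part in those differences was not tested.

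**Figure D1:**
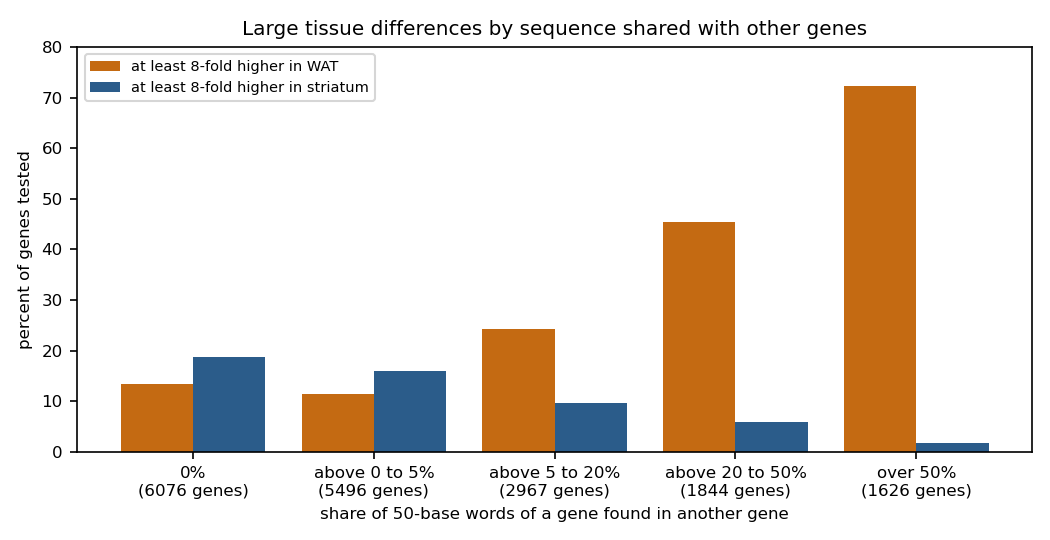
Percent of genes tested (y axis) that were at least 8-fold higher in WAT or in striatum under PTU, for 5 bins of the share of a gene's 50-base words that occur in another gene (x axis). The WAT bars go from 13.3% to 11.4% over the lowest 2 bins and then rise to 72.2%, and the striatum bars fall from 18.7% to 1.78%.

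Libraries of the same tissue also differed from one another. Total counts were 18.4 to 24.4 M in WAT and 8.84 and 9.35 M in striatum. Adipocyte genes marked every WAT library and neuronal genes every striatum library, as labelled. Of 12 skeletal muscle genes, 12 were large in WAT (23.1% of all genes tested were). Their summed level was 217634 and 515248 in WAT replicates 1 and 4 but 2143 and 3777 in replicates 2 and 3. It was 221 and 212 in striatum, so replicates 1 and 4 set the level of muscle genes in WAT. With WAT replicates 2 and 3 alone, the muscle genes Myh1, Myh4 and Atp2a1 were still large, at 9.67, 9.47 and 6.94. Lymphoid genes were higher in WAT replicates 3 and 4 (8873 and 8922) than in 1 and 2 (3928 and 3761), and stood at 609 and 1014 in striatum. None of 13 epididymis genes was tested, with summed levels of 2.89 to 11.3 in WAT. Genes of cortical excitatory neurons summed to 11126 in striatum replicate 3 and 6480 in replicate 6. All animals are labelled male, but Xist, which is transcribed from the inactive X chromosome of females, had 45442 normalised counts in striatum replicate 6 and 23.7 in replicate 3, and the Y-linked gene Ddx3y had 0 and 337. The WAT libraries ran from 0.809 to 7.33 for Xist and from 999 to 1467 for Ddx3y. The sex labels therefore do not match 1 of the 2 striatum libraries, and results without either of them are given in the closing section.

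**Figure D2:**
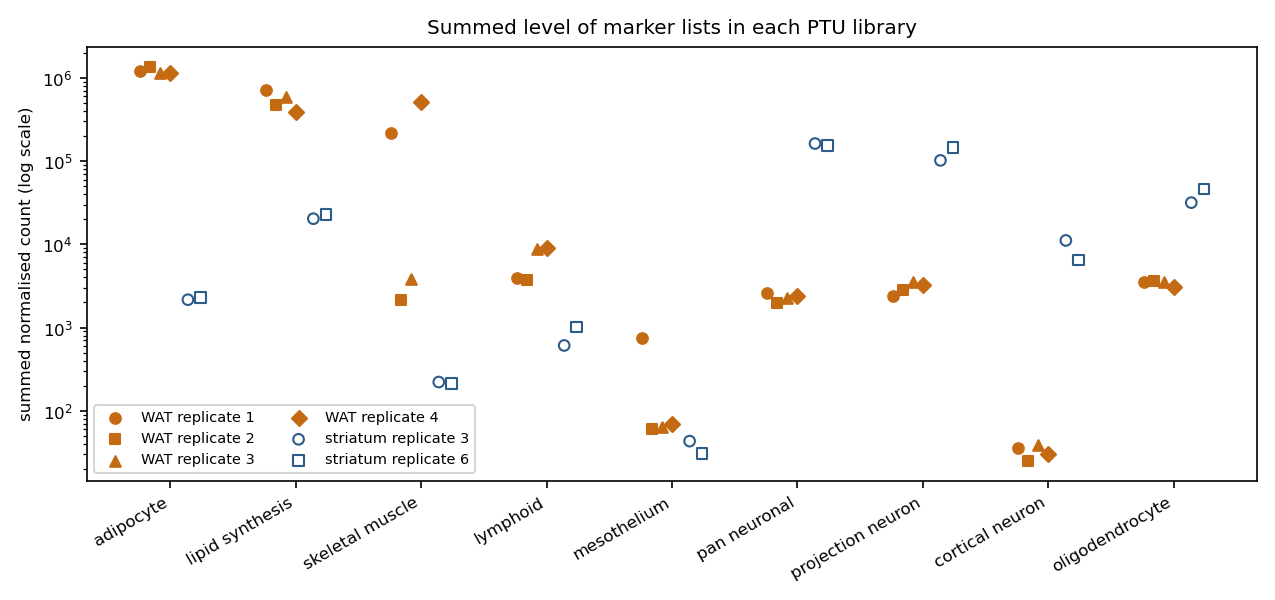
Summed normalised count (log scale) of 9 marker lists in each of the 6 PTU libraries, with filled symbols for WAT and open symbols for striatum. Adipocyte and neuronal lists separate the tissues in every library, while the skeletal muscle list splits WAT replicates 1 and 4 from 2 and 3 and the mesothelium list is highest in WAT replicate 1.

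Of 38 genes listed for hormone handling, 23 had a mean normalised count above 10 and were tested. Of these, 5 were large in WAT (23.1% of all genes tested were) and 6 in striatum (13.5%), 3 and 6 passed the test with smaller differences in the same directions, and 3 did not pass. Over all genes, 46.9% passed the test with higher levels in WAT and 33.9% with higher levels in striatum. The median over the 23 genes was -1.16, against 0.44 over all genes. Each of the 11 large genes had libraries that did not overlap between the tissues, as had nearly all genes called large (36.6% of the genes tested were large and did not overlap). With little shared sequence, 20 genes remained tested, of which 4 were large in WAT and 6 in striatum. Over all genes with little shared sequence, 12.4% were large in WAT and 17.4% in striatum. The median over the 20 genes was -1.33, against -0.085 over all such genes.

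The stretch of DNA just before the transcription start is shown for 4 of the genes on which the hormone-handling results turn: the deiodinase gene and the transporter gene with the largest striatal excess, and the transporter gene and the receptor partner gene with a large WAT excess. Sequences are the 250 bases before the start in RefSeq (GRCm38.p6), written 5′ to 3′ on the strand of the gene. Capitals mark matches on either strand to AGGTCA (the half-site that nuclear receptors recognise), to the cAMP response element TGACGTCA, to the TATA box TATAAA and to the box CCAAT, which do not overlap here. The starts are those of RefSeq and can differ from the ends of the gene models given later. Dio2 lies at chr12:90739039-90739288 on the minus strand, Slco1c1 at chr6:141524104-141524353 on the plus strand, Slc16a10 at chr10:40142255-40142504 on the minus strand and the downstream of the 2 Rxra starts at chr2:27709042-27709291 on the plus strand.
Dio2: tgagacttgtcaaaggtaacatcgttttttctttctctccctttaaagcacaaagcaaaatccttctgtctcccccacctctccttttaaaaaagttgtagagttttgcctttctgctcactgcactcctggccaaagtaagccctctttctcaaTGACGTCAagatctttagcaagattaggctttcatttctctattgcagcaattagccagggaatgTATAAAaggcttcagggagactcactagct
Slco1c1: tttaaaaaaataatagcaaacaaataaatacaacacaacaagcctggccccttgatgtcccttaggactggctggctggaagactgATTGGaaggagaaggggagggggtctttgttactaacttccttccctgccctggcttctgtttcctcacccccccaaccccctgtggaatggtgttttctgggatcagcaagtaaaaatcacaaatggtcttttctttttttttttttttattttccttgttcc
Slc16a10: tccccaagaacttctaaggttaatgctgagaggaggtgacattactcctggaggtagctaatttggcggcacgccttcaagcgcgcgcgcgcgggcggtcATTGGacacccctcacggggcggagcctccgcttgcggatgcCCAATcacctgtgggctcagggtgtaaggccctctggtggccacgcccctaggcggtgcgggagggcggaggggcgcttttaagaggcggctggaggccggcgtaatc
Rxra: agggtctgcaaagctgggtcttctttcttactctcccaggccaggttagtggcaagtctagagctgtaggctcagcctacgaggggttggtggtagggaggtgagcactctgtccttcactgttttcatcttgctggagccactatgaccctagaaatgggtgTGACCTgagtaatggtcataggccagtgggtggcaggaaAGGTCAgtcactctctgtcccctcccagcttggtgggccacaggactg

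The Dio2 window held TGACGTCA, beginning 95 bases before the start, and TATAAA, beginning 30 bases before it. Over the 32851 promoters of the RefSeq table, 1.55% held TGACGTCA and 12.4% held TATAAA. Slco1c1 held 1 CCAAT, on the opposite strand, and Slc16a10 held 2, 1 on each strand, a motif found in 33.8% of all promoters. The Rxra window held AGGTCA once on each strand, 48 and 87 bases before the start, and its other window held none of the 4 motifs. A promoter was found for 29 of the 38 hormone-handling genes (39 windows), of which 11 windows held AGGTCA (28.2%, against 14% of all promoters). A direct repeat of AGGTCA with 4 bases between, the classical T3 response element, was in 5 promoters of the table and in none of the 39. These counts describe letters in a window and not binding.

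**Figure D3:**
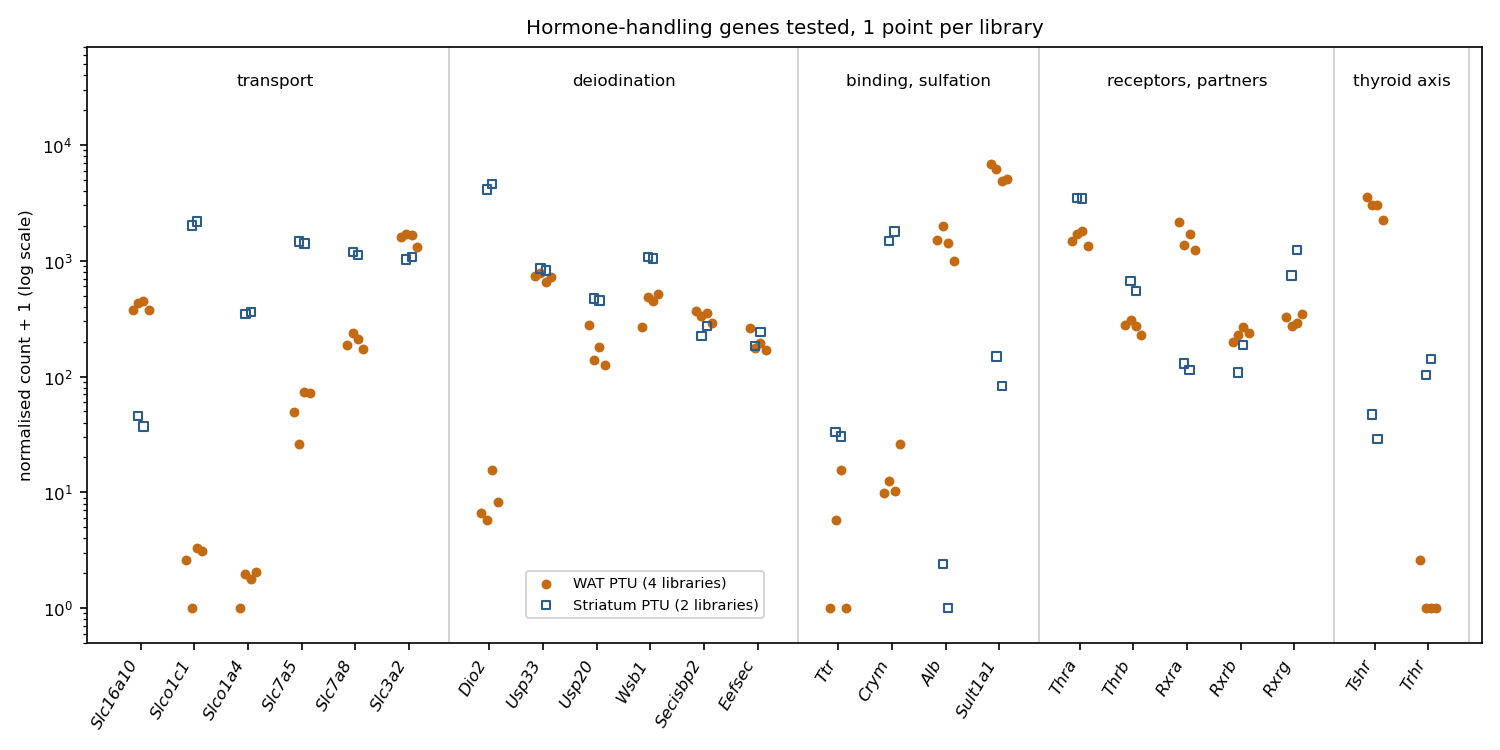
Normalised count plus 1 (log scale) of the 23 hormone-handling genes tested, grouped by role, with 1 filled point per WAT library (4) and 1 open square per striatum library (2). Slco1c1, Slco1a4, Dio2, Crym and Trhr lie far higher in striatum, Alb, Sult1a1, Rxra and Tshr far higher in WAT, and Thra and Thrb are higher in striatum by less than 8-fold.

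Transporter genes differed in both directions. Slco1c1, which encodes a T4 carrier of the blood-brain barrier and of astrocytes (chromosome 6, 141524368 to 141570177), had 1.62, 0, 2.30 and 2.10 normalised counts in WAT replicates 1 to 4 and 2007 and 2177 in striatum replicates 3 and 6. The log2 difference was -10.29 ± 0.34 (adjusted p = 1.8e-07, edgeR). Slco1a4, an organic anion carrier of brain endothelium, had 0 to 1.05 in WAT and 345 and 362 in striatum, and with 3 counts in all WAT libraries together the striatum level was 534 times higher (95% counting interval 182 to 2599). Both genes were thus near absent from WAT RNA and plain in both striatum libraries. In bulk tissue, fewer cells of a type and less RNA per cell cannot be told apart.

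Slc7a5 encodes LAT1, the light chain of an amino acid exchanger that also takes thyroid hormone. It had 48.5, 25.0, 72.2 and 71.2 in WAT and 1461 and 1405 in striatum (-4.72 ± 0.35, adjusted p = 6.1e-06, edgeR). The related light chain gene Slc7a8 (LAT2) stood at 172 to 237 in WAT and 1126 and 1184 in striatum. Its difference of -2.52 ± 0.16 was under 8-fold and became -3.80 with scaling to reference genes. Slc3a2, the heavy chain that both light chains need, was alike in order of magnitude, with 1312 to 1704 in WAT and 1022 and 1077 in striatum, and its difference of 0.58 ± 0.16 turned to -0.70 when the libraries were scaled to reference genes.

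Slc16a10 was the exception among the transporters. It encodes MCT10, a carrier of aromatic amino acids and T3 (chromosome 10, 40033532 to 40142258), and had 371, 432, 451 and 375 normalised counts in WAT and 44.6 and 36.0 in striatum. All WAT libraries lay above both striatum libraries, and the difference was 3.33 ± 0.21 (adjusted p = 2.4e-06, edgeR), which fell under 8-fold with scaling to reference genes. Per kb of exon, its mean level was 55.4 in WAT and 5.48 in striatum. The other 6 transporter genes listed (Slco1a1, Slco1a5, Slco1b2, Slco4a1, Slc10a1 and Slc17a4) were too low to be tested, with 19.5 normalised counts for Slco4a1 in striatum replicate 3 as their highest value.

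Among deiodinases, Dio2 was the gene that could be compared. It encodes the enzyme that makes T3 from T4 (chromosome 12, 90724552 to 90738438) and had 5.66, 4.81, 14.6 and 7.33 normalised counts in WAT and 4108 and 4620 in striatum. Its difference of -9.02 ± 0.34 (adjusted p = 2.7e-07, edgeR) corresponds to levels per kb of exon of 1.39 in WAT and 750 in striatum. Dio1, the activating enzyme of liver and kidney, had 1 count in 1 WAT library and none elsewhere, and Dio3, which inactivates the hormone, had 0 in every WAT library and 0 and 2.67 in striatum. Neither gene reached more than 2 counts in a tissue at this depth. The genes that act on the DIO2 protein or on selenoprotein synthesis moved little. Usp20 and Usp33 encode deubiquitinases of DIO2, with differences of -1.36 ± 0.30 and -0.22 ± 0.13 (21.2% of the words of Usp33 are shared), and Wsb1 encodes its ubiquitin ligase adaptor, with -1.30 ± 0.25. Secisbp2 and Eefsec, which serve selenocysteine insertion, stood at 0.44 ± 0.17 and -0.08 ± 0.23, and the first turned to -0.84 with scaling to reference genes.

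Binding and conjugating proteins split by tissue. Crym encodes mu-crystallin, which binds T3 in the cytosol (chromosome 7, 120186380 to 120202111), and had 8.90, 11.6, 9.21 and 25.1 in WAT against 1481 and 1782 in striatum (-6.92 ± 0.35, adjusted p = 8.7e-07, edgeR). Sult1a1 encodes a phenol sulfotransferase that can sulfate iodothyronines (chromosome 7, 126672865 to 126676432; 7.36% of words shared). Its levels were 6887, 6192, 4909 and 5029 in WAT and 148 and 81.4 in striatum, a difference of 5.65 ± 0.36 (adjusted p = 2.8e-06, edgeR). Alb, the gene of serum albumin, which carries hormone in plasma, had 990 to 1980 in WAT and 1.39 and 0 in striatum, where 1 count was read in all, so that WAT was 2174 times higher (counting interval 390 to 85900). Ttr encodes transthyretin, the carrier made by choroid plexus and liver. It stood at 0, 4.81, 14.6 and 0 in WAT and 32.0 and 29.4 in striatum and did not pass the test (-2.56 ± 1.05, adjusted p = 0.051). Serpina7, Sult1b1 and Sult1c2 were not tested, with at most 2.79 normalised counts in any library.

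The receptors themselves differed by less than the limit set for comparing these tables. Thra (chromosome 11, 98740638 to 98769006) had 1472, 1701, 1807 and 1334 normalised counts in WAT and 3477 and 3437 in striatum, and Thrb (chromosome 14, 17660261 to 18038090) had 279, 308, 273 and 229 against 670 and 547. The differences were -1.13 ± 0.16 and -1.16 ± 0.17, and over the settings run they reached -2.41 and -2.44. Per kb of exon, Thra made up 90.3 ± 0.85% (SD, n = 4) of the summed level of both genes in WAT and 90.1 ± 1.20% (SD, n = 2) in striatum. The shares differed by less than the spread between libraries. The values count all transcripts of Thra together, including those of the isoform that does not bind T3.

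Their RXR partners did differ. Rxra (chromosome 2, 27676440 to 27762957) had 2155, 1363, 1712 and 1241 in WAT and 128 and 113 in striatum, with a difference of 3.74 ± 0.29 (adjusted p = 8.2e-06, edgeR) that fell to 2.46 with scaling to reference genes. Rxrg went the other way under 8-fold, with 273 to 349 in WAT and 745 and 1241 in striatum (-1.68 ± 0.21). Rxrb had 196 to 266 in WAT and 107 and 185 in striatum, and its difference of 0.66 ± 0.25 turned to -0.61 with scaling to reference genes. Within the family, which does not depend on scaling, Rxra took 59.9 ± 6.53% of the summed level per kb in WAT and 4.84 ± 2.01% in striatum. Rxrg took 27.9 ± 4.75% in WAT and 87.7 ± 1.67% in striatum, and the libraries of the tissues did not overlap for either share.

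The receptors of the thyroid axis were also divided. Tshr, the receptor of thyrotropin (chromosome 12, 91384563 to 91549808), had 3517, 3038, 3001 and 2245 normalised counts in WAT and 46 and 28 in striatum. The difference was 6.32 ± 0.33 (adjusted p = 1.1e-06, edgeR), and every WAT library lay above both striatum libraries. Trhr, the receptor of thyrotropin-releasing hormone, had 1.62, 0, 0 and 0 in WAT and 102 and 140 in striatum, a ratio of 275 in favour of striatum with 2 counts in WAT (counting interval 75.0 to 2287). The other 4 genes of that list, Trh, Trhr2, Tshb and Cga, were not tested.

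Coregulators of the receptors varied within narrower limits. Of 17 tested, 1 was large in WAT, 2 passed with smaller differences toward WAT and 10 toward striatum, and 4 did not pass. Over all genes tested, 23.1% were large in WAT and 33.9% passed with higher levels in striatum. The large one was Ncoa4, a coactivator that also serves as a receptor for ferritin, with 2271 to 2661 in WAT and 36.2 and 29.4 in striatum (6.2 ± 0.21, with 17.9% of words shared). The p160 coactivator genes Ncoa1 and Ncoa2 stood at -1.97 and -1.68, and Crebbp, an acetyltransferase, at -1.86. Ppargc1a, the coactivator of mitochondrial biogenesis, had the largest striatal excess of the list, at -2.87. The corepressor gene Ncor1 differed by -0.37 and passed the test. The median of the list was -0.58, smaller than the shift of -1.28 between scalings, which also exceeds the difference of Hr given below and would turn its sign.

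Genes known to respond to thyroid hormone were found on both sides. Of 16 tested, 6 were large in WAT and 3 in striatum (23.1% and 13.5% of all genes tested were), 5 passed toward striatum with smaller differences and 2 did not pass. Thrsp, which promotes lipogenesis, had 66467, 26442, 25034 and 21973 in WAT and 94.7 and 89.4 in striatum (8.57 ± 0.72, adjusted p = 1.4e-05, edgeR), with replicate 1 far above the other WAT libraries. The others large in WAT were the malic enzyme gene Me1 (7.62 ± 0.48, 28.3% of words shared), the fatty acid synthase gene Fasn (5.99 ± 0.66), Stat5a (5.19 ± 0.32, 8.52% of words shared), Ucp1 and Atp2a1. Atp2a1 encodes the calcium pump of fast muscle (18% of words shared) and was high in the muscle-rich WAT replicates 1 and 4 (28523 and 48080, against 283 and 418). Its call was lost without striatum replicate 3 (12.79, adjusted p = 0.0536, edgeR) and without replicate 6 (12.71, adjusted p = 0.0546).

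In striatum, the large targets were the synaptic calmodulin-binding gene Nrgn, the G protein gene Rasd2 and the myelin gene Mbp. Nrgn had 31.5 to 53.9 in WAT and 4542 and 3759 in striatum (-6.58 ± 0.24), and Mbp had 1035 to 1378 against 17228 and 25525 (-4.19 ± 0.22). Rasd2 had 166, 10.6, 5.37 and 163 in WAT, where the libraries rich in muscle RNA were again the higher ones, and 2259 and 4439 in striatum (-5.28 ± 1.08). Of the targets that were not large, Klf9, a transcription factor gene, stood at -2.18, Desi1 at -2.12 and Hr, a nuclear corepressor gene, at 0.77, and Hr did not pass the test (adjusted p = 0.053, edgeR).

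Other nuclear receptors that pair with RXR were measured beside the TR genes. Of 10 tested, Pparg and Nr1h3 were large in WAT and Rarb in striatum, numbers near the shares over all genes (23.1% and 13.5%). Pparg, the master regulator of adipocyte differentiation, had 3891 to 5536 in WAT and 16.7 and 10.7 in striatum (8.41 ± 0.33, adjusted p = 3.0e-07, edgeR). Nr1h3, the oxysterol receptor LXR alpha, had 1032 to 1316 against 4.18 and 4 (8.13 ± 0.26). Rarb, a retinoic acid receptor of striatal projection neurons, had 49.2 to 75.2 in WAT and 3017 and 4342 in striatum (-5.93 ± 0.23), with 34.1% of words shared.

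Receptors for other hormones included large differences in both directions. Of 24 tested, 8 were large in WAT and 2 in striatum, against 23.1% and 13.5% of all genes. Ghr, the growth hormone receptor, had 12738 to 16747 in WAT and 152 and 164 in striatum (6.55 ± 0.27, adjusted p = 3.8e-07, edgeR). Adrb3, the catecholamine receptor that drives lipolysis in rodent fat, stood at 4659 to 7754 against 16.7 and 2.67 (9.23 ± 0.65, 19.2% of words shared). The natriuretic peptide receptor genes Npr1 and Npr3 were large in WAT at 5.39 ± 0.35 (7.57% of words shared) and 4.69 ± 1.01, and Npr3 varied from 239 in replicate 1 to 2290 in replicate 2 and was not called in the test against the 8-fold minimum (adjusted p = 0.053, edgeR). Adipor2, the adiponectin receptor, stood at 3.55 ± 0.23 and fell to 2.27 with scaling to reference genes. The 2 large in striatum were the progesterone receptor gene Pgr (-7.33) and Mc4r, the melanocortin receptor of brain, which was at 0 in every WAT library.

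Adipocyte genes had the highest summed level of the 36 gene lists in every WAT library. Of 28 adipocyte genes, 27 were large in WAT and none in striatum, with a median of 9.18. Over all genes tested, 23.1% were large in WAT and 13.5% in striatum. The adipocyte genes made up 7.63% to 9.43% of the counts of WAT libraries and 0.0219% to 0.0228% in striatum. With little shared sequence the count of adipocyte genes large in WAT was 21 of 22 (12.4% of all such genes were). Fabp4, the fatty acid binding protein of adipocytes, had 160095, 243866, 193240 and 214433 in WAT and 2.79 and 2.67 in striatum (16.12 ± 0.51, adjusted p = 1.6e-07, edgeR). Adipoq, the gene of the hormone adiponectin, had 58679 to 76487 in WAT and 0 and 1.33 in striatum. Cfd, the complement factor adipsin, had 104988 to 159099 in WAT and no count in striatum, which makes it at least 69558-fold higher against 3 counts over both striatum libraries. By the same bound, the lipid droplet gene Cidec was at least 17883-fold and Plin4 at least 9213-fold higher, and the carboxylesterase gene Ces1d at least 8408-fold higher.

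The 12 genes with the largest differences in each direction, among those above 1000 normalised counts in the higher tissue, were mostly of these programs. Names that begin with Gm and a digit or end in Rik and rows that copy another were left out of this ranking, among them Gm10925 (21.83), whose WAT row copies that of a mitochondrially encoded gene, and C230004F18Rik (-14.25). In WAT they were Cfd, Cidec, Cyp2e1, Plin4, Ces1d, Adipoq, Fabp4, Ces1f, Orm1 (20.4% of words shared), Pck1 and the muscle myosin genes Myh1 and Myh4 (30.5% and 18.9% of words shared), the last of which had 45905 and 115007 in WAT replicates 1 and 4 and 391 and 760 in the others. The calls of Myh1 and Myh4 were lost without striatum replicate 3 (adjusted p = 0.063 and 0.050, edgeR), that of Myh1 also without replicate 6 (adjusted p = 0.064). Pck1, which makes phosphoenolpyruvate for glyceride synthesis, varied from 10682 in replicate 1 to 53220 in replicate 3. In striatum they were the neuronal genes Cnnm1, Syt16, Calb1, Sncb, Gad2, Npy, Cdh8 and Slitrk3, the genes Arfgef3, Amer2 and St8sia3, and Xist, which was high in 1 library only. Cnnm1 and Syt16 had no count in WAT and were at least 2161-fold and 1541-fold higher in striatum against 3 counts over the 4 WAT libraries. Npy, the gene of neuropeptide Y, had 4637 and 5771 in striatum and at most 2.89 in WAT.

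Lipid synthesis and lipid release genes were both higher in WAT. Over all genes tested, 23.1% were large in WAT and 13.5% in striatum. Of 20 genes of fatty acid and triglyceride synthesis, 16 were large in WAT and none in striatum, with a median of 5.24. Their summed level was 716569, 473019, 589559 and 384826 in WAT replicates 1 to 4, against 20300 and 22673 in striatum. Scd1, which desaturates stearic acid, had 104007 to 233184 in WAT and 883 and 727 in striatum (7.70 ± 0.49), and Acly, the citrate lyase that supplies acetyl units, stood at 4.92 ± 0.59. Of 14 genes of lipolysis and its adrenergic control, 9 were large in WAT and none in striatum. Pnpla2 and Lipe, the lipases that begin triglyceride and diglyceride breakdown, stood at 7.40 ± 0.44 and 7.95 ± 0.33 (10.8% of words of Lipe shared). Lpl, which frees fatty acids from lipoproteins, had 103751 to 150958 in WAT and 588 and 688 in striatum (7.59 ± 0.35).

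Genes of brown and beige adipocytes were divided. Of 17 tested, 9 were large in WAT and 2, Dio2 and Zic1, in striatum (23.1% and 13.5% of all genes tested were). Ucp1, the uncoupling protein of thermogenic fat, had 4.04, 16.4, 228 and 85.9 normalised counts in WAT and 1.39 and 1.33 in striatum (5.82 ± 2.06, adjusted p = 0.03, edgeR). The WAT libraries differed 56.4-fold among themselves, and the call was lost without striatum replicate 3 (5.89, adjusted p = 0.121, edgeR) and without replicate 6 (5.82, adjusted p = 0.125). Cidea stood at 587 to 1402 against 18.1 and 5.34 (6.42 ± 0.59), and Cox8b, a cytochrome oxidase subunit of brown fat and muscle, at 668 to 1240 against 2.79 and 4 (8.07 ± 0.46). Prdm16, Tbx1, Tmem26 and Lhx8 did not pass the test.

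Other cells of WAT were visible. Of 22 genes of fibroblasts and extracellular matrix, 13 were large in WAT (23.1% of all genes tested were) and none in striatum. Col3a1, among the large ones, had 8459 to 34336 against 148 and 128 (7.26 ± 0.69). Of 14 endothelial genes, 5 were large in WAT, against 23.1% of all genes, and Slco1a4 in striatum, and with little shared sequence 3 of 12 were large in WAT. Gpihbp1, which moves lipoprotein lipase to the capillary wall, had 1615 to 1835 in WAT and 1.39 and 1.33 in striatum (10.15 ± 0.26), while the general endothelial gene Pecam1 stood at 2.57, under the limit. Of 12 macrophage genes, 10 were large in WAT, such as Retnla (4.64 ± 0.71) and Timd4 (8.48 ± 0.78). Of 10 microglia genes, 4 were large in striatum (13.5% of all genes tested were) and 5 passed with smaller differences toward striatum. Over all genes, 33.9% passed the test with higher levels in striatum. Sall1 (-8.48 ± 0.25) and P2ry12 (-5.23 ± 0.20) were among the large ones, while Csf1r, which both kinds of cell express, stood at -0.02.

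Of 27 genes of neurons in general, 27 were large in striatum, with a median of -7.36 and a summed level of 162394 and 154292 against 1978 to 2599 in WAT. Of 24 genes of striatal projection neurons, 23 were large in striatum. Over all genes tested, 13.5% were large in striatum. Ppp1r1b, which encodes the dopamine-regulated phosphatase inhibitor DARPP-32, had 6.14 to 19.3 in WAT and 6410 and 10235 in striatum (-9.41 ± 0.40). Gad2, a GABA-synthesising enzyme, stood at -12.33 ± 0.44. The calmodulin kinase gene Camk2a, at -5.54 ± 1.19, had 425 and 611 in the muscle-rich WAT libraries and 23.1 and 29.2 in the others. Striatal tissue also held 9 of 9 cortical neuron genes as large, such as Slc17a7, a vesicular glutamate transporter of cortical neurons, with 4663 and 2447 in striatum and at most 1.54 in WAT.

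Many genes of glia were also large in striatum. The cells that held the RNA of Dio2 and Slco1c1 were not tested. Of 14 astrocyte genes, 9 were large in striatum (13.5% of all genes tested were), and Aldh1l1 in WAT (4.55 ± 0.41, 10% of words shared). Slc1a2, the main glutamate transporter of astrocytes, had 13.5 to 26.2 in WAT and 48416 and 56858 in striatum (-11.56 ± 0.35, adjusted p = 1.4e-07, edgeR). Aqp4, the water channel of astrocytes and of muscle fibres, had 123 and 124 in the muscle-rich WAT libraries, 2.89 and 4.61 in the others and 1520 and 1443 in striatum. Of 16 oligodendrocyte genes, 11 were large in striatum, with Mobp, a structural myelin gene, at -10.12 ± 0.30. Aspa, which encodes an enzyme that splits N-acetylaspartate, was large in WAT at 3.03, just past the limit, and 1 more gene passed the test toward WAT. The summed level of the list was 31661 in striatum replicate 3 and 45996 in replicate 6.

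**Figure D4:**
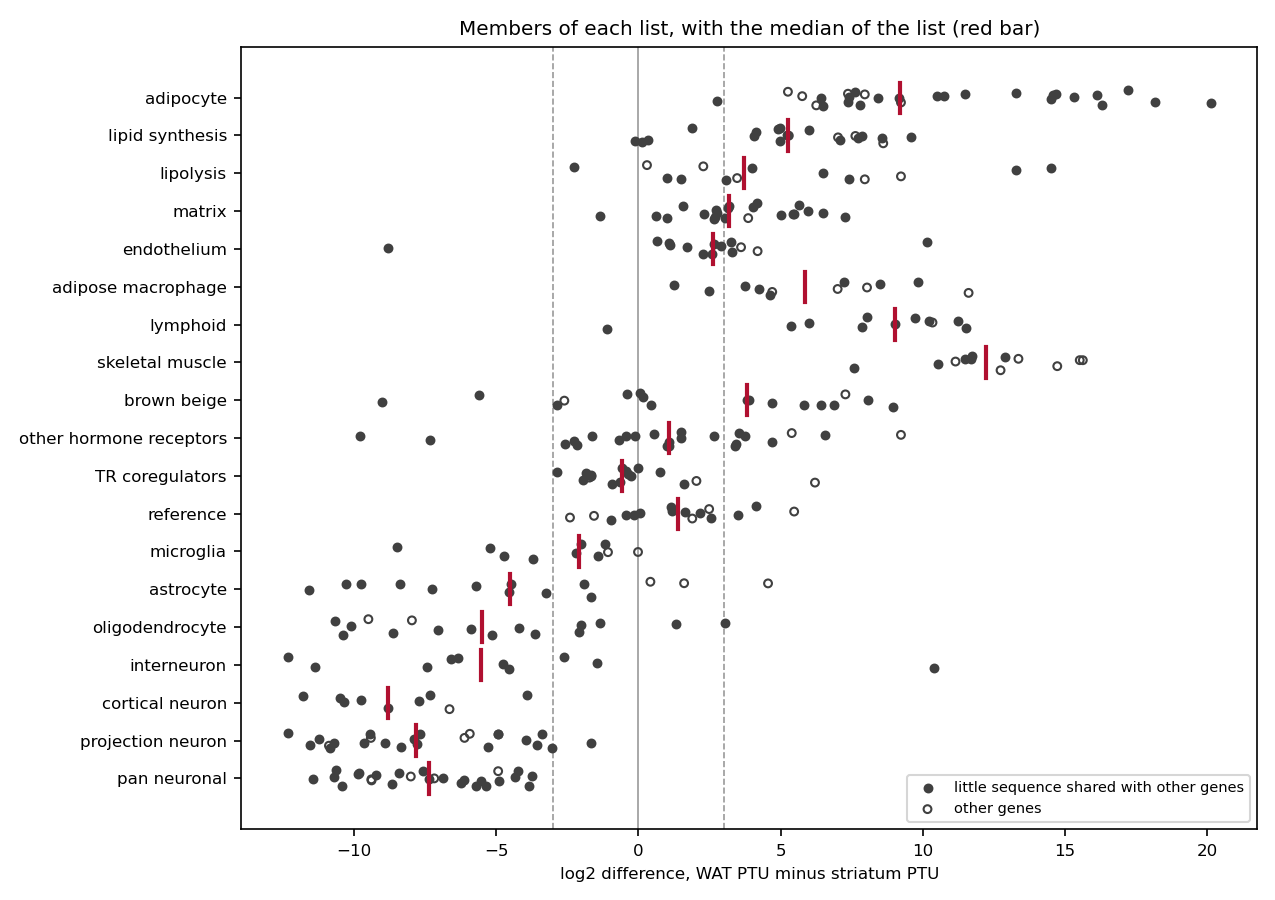
Log2 difference between WAT and striatum under PTU (x axis) of each tested member of 19 gene lists, with filled points for genes that share little sequence with other genes, open points for the rest, a red bar at the median of the list and dashed lines at the 8-fold limits. Adipocyte, lipid and muscle lists lie to the right, with a median of 9.18 for adipocyte genes, and neuronal lists to the left, with a median of -7.36 for genes of neurons in general.

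In 4 families of metabolic genes, chosen after their values were seen, different members led in the tissues. Shares within a family per kb of exon do not depend on scaling. Eno1, Fabp3, Fabp5, Ldha, Ldhb, Cox4i1 and Cox6a1 are not among the genes with little shared sequence. The part of shared sequence in the family shares was not tested. Hk2, the insulin-regulated hexokinase, made up 76.7 ± 3.53% of Hk1, Hk2 and Hk3 in WAT (SD, n = 4) and 2.70 ± 1.03% in striatum (SD, n = 2), where Hk1, the hexokinase of brain, made up 95.5 ± 1.05%. Slc2a4, the insulin-regulated glucose transporter GLUT4, made up 89.3 ± 2.11% of Slc2a1, Slc2a3 and Slc2a4 in WAT and 1.11 ± 0.055% in striatum. In striatum Slc2a1 (GLUT1, 52.9 ± 3.15%) and the neuronal Slc2a3 (GLUT3, 46 ± 3.10%) shared the level. Fabp4 made up 95.4 ± 2.47% of the fatty acid binding genes in WAT, and Fabp7, the form of radial glia and astrocytes, 79.2 ± 2.25% in striatum. For enolases, neuronal Eno2 made up 77.1 ± 3.34% in striatum and 0.314 ± 0.186% in WAT, where the muscle form Eno3 made up 35.3% and 73.5% in replicates 1 and 4 and 3.83% and 5.42% in replicates 2 and 3. The lactate dehydrogenase pair, also chosen after its values were seen, had different leading members too. Ldha made up 83.9% to 89.1% of the pair in the WAT libraries, and Ldhb made up 52.1% and 60.8% in the striatum libraries. The cytochrome oxidase pairs did not switch. In each of 5 pairs of cytochrome c oxidase isoforms the same member led in every library of both tissues, with Cox4i1 at 98.0 ± 0.33% in WAT and 99.1 ± 0.276% in striatum and Cox8a at 80.1 ± 4.22% and 99.9 ± 0.0392%.

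**Figure D5:**
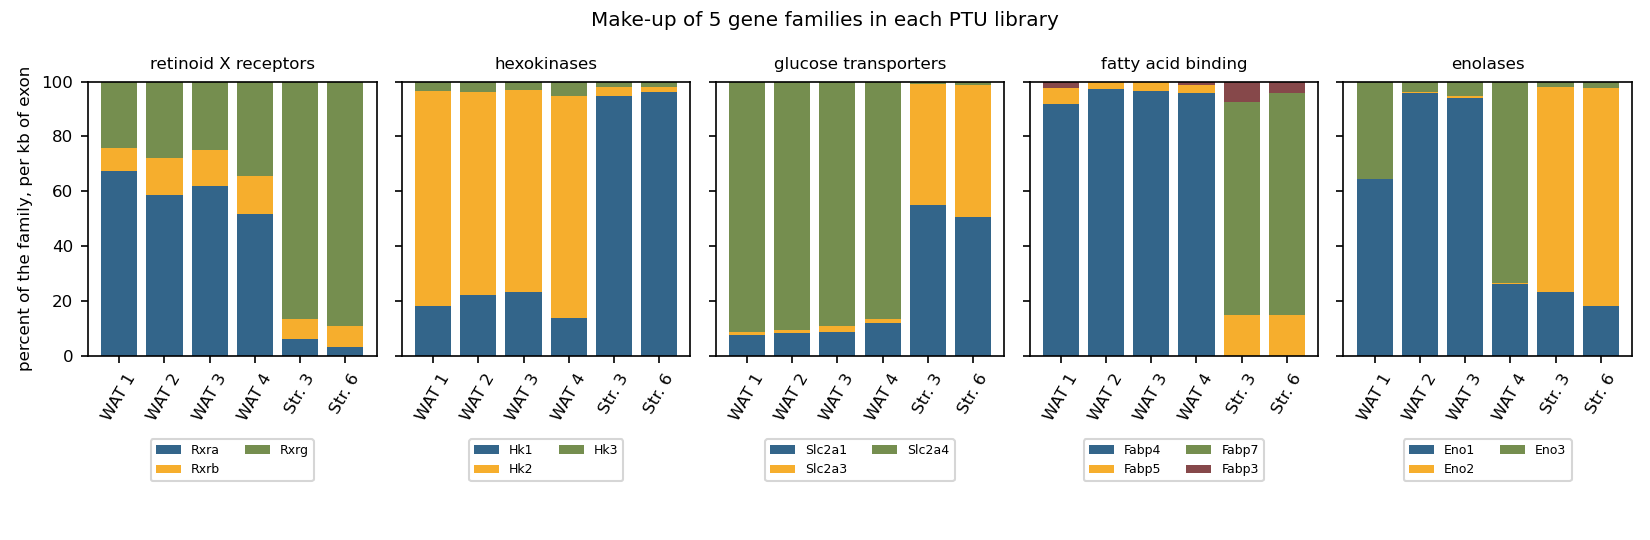
Percent of the summed level per kb of exon (y axis, from 0 to 100) that each member of 5 gene families took in each of the 4 WAT and 2 striatum PTU libraries. Rxra, Hk2, Slc2a4 and Fabp4 lead in WAT and Rxrg, Hk1 and Fabp7 in striatum in every library, while the enolases of WAT replicates 1 and 4 carry a large share of muscle Eno3.

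The contrast was repeated in the 4 WAT and 4 striatum libraries taken 24 h after TH, which share no library with the PTU contrast but share tissue, extraction and table. At 24 h, 17814 genes were tested, of which 4095 were large in WAT (23.0%) and 2632 in striatum (14.8%). Of 17529 genes tested in both contrasts, 3924 were large in WAT under PTU and 3749 of them again at 24 h, 2405 were large in striatum under PTU and 2295 again, and 0 were large in opposite directions. Of the 11 hormone-handling genes large under PTU, 10 were large at 24 h. Slc16a10 was the exception, at 2.12. All 4 striatum libraries at 24 h had over 1000 Xist counts.

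The change of the tissue difference between PTU and 24 h was tested as an interaction over 17975 genes, of which 173 passed (0.962%), among them 2 hormone-handling genes. For Dio2 the difference moved by 5.82 ± 1.00 toward WAT (adjusted p = 0.0141, edgeR), with a WAT mean of 7.85 under PTU and 326 at 24 h and a striatum mean of 4124 and 2902. For Slc16a10 it moved by -1.25 ± 0.24 (adjusted p = 0.0264, edgeR), with WAT means of 396 and 207 and striatum means of 38.1 and 47.7. Tshr, with WAT means of 2869 and 936 and striatum means of 35.0 and 36.6, did not pass (adjusted p = 0.0548). No label at 24 h names PTU, and Xist was high in 1 of 2 striatum libraries under PTU and in 4 of 4 at 24 h, so that time and this feature cannot be told apart in striatum.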

How the data were processed

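RNA was sequenced from WAT and striatum with Lexogen SENSE total RNA libraries on an Illumina NextSeq sequencer. The authors deposited raw counts, 1 table per tissue (55341 rows for striatum, 47643 for WAT). They describe alignment with Bowtie (version 2.2.6.2 and build mm10 in the submitters' processing notes), removal of alignments with a quality below 10 and counting per gene with htseqcount. The annotation release and strand setting are not given in the sources used here. The WAT table held 235 pairs of rows that copy each other within 2% (mean above 100 counts), and 122 such symbols among the genes compared held 7.30% to 8.95% of the WAT counts and 0.0539% to 0.0554% of the striatum counts under PTU. Mapped columns covered every column of per-sample values (0 left out).

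Symbols found once in both tables were joined, 37 mt- symbols were left out, and the joint counts made up 78.6% to 80.6% of library totals. Groups came from the labels. A mean normalised count above 10 over the libraries of a contrast was required, and tests were run with edgeR 4.0.16 in R 4.3.3 (TMM factors, glmQLFit, glmQLFTest, two-sided, tissue as the only term, each contrast fitted alone), with DESeq2 1.42.0 as an alternative. On simulated counts the PTU fit recovered 200 of 200 changed genes. Replicates differed by more than counting noise. Shared words and exons were computed from the GENCODE M21 gene models of GRCm38, which also gave gene positions and exon lengths. Counting intervals are 95% and cover counting error only.

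The members and all gene lists were chosen with earlier results of these data known. Of the genes on these lists, 4 are not reported here and are left out of the counts and levels of lists. Genes were named by a rule: every gene of hormone transport, deiodination, binding and receptors, large members of the other thyroid lists, up to 6 large members with the highest level from each other list, the 12 largest differences per direction and the genes nearest the 8-fold limit. From these the text gives a choice, and Ncoa1, Ncoa2, Crebbp, Ppargc1a, Ncor1, Klf9, Desi1, Hr, Pgr, Mc4r, Pecam1, Csf1r, Prdm16, Tbx1, Tmem26, Lhx8, Aspa, Gm10925, C230004F18Rik and the cytochrome oxidase pairs were added after their values were seen. In lists not described above, 3 of 5 erythrocyte and 5 of 8 stratified epithelium genes were large in WAT. The same held for 1 of 4 mesothelium and 1 of 4 choroid plexus genes. Of the choroid plexus genes, 2 were large in striatum. Of 10 interneuron genes, 7 were large in striatum and 1 in WAT. The summed interneuron level was 3443, 400, 482 and 19722 in WAT replicates 1 to 4, against 11231 and 14081 in striatum. Over all genes tested, 23.1% were large in WAT and 13.5% in striatum. Of 16 reference genes, 3 were large in WAT.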

Additional observations from a re-analysis of the deposited data

Results flagged for a closer look

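In 4 of 81 genes examined, 1 of the 4 WAT PTU libraries stood apart from the others by Dixon's 95% criterion (the gap to the next library over the range), and about 1 gene in 20 would be picked by chance (4.94% were). Thrsp had 66467 normalised counts in replicate 1, and the next library had 26442. Crym had 25.1 in replicate 4, with 11.6 next, and Slc1a2 had 26.2, with 15.4 next. Npr1 was lowest in replicate 4 at 585, with 891 next. Replicates 1 and 4 are also the WAT libraries with summed skeletal muscle levels of 217634 and 515248, and the part of muscle RNA in these values was not tested. None of the 4 genes lost its call without either library.

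For 2 hormone-handling genes the tissue difference at 24 h after TH differed from that under PTU in a test of the change itself (edgeR's quasi-likelihood test, Benjamini-Hochberg over 17975 genes). The change was 5.82 on the log2 scale for Dio2 (adjusted p = 0.0141) and -1.25 for Slc16a10 (adjusted p = 0.0264).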

How the results depend on the processing

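Of 84 genes named as large and followed across settings, 69 kept the call under every setting in which they were tested. Genes that share more sequence were not part of the refit with only genes of little shared sequence. Another 15 lost it under at least 1, and 0 changed sign. The 15 were Adipor2, Aqp4, Atp2a1, Eno3, Mfap1b, Myh1, Myh4, Npr3, Rxra, Slc16a10, Slc2a3, Snap47, Ssc5d, Ucp1 and Vash1. Pgr, Mc4r, Aspa, Gm10925 and C230004F18Rik were not followed across settings. Of the genes followed that were not large, 7 became large under at least 1 setting, Slc7a8 and Ttr among them. Scaling to reference genes turned Rxrb to -0.61, Secisbp2 to -0.84 and Slc3a2 to -0.70, and Eefsec ran from -0.24 to 0.14 when each library was left out, with the sign turned without striatum replicate 6. The number of genes large in WAT and in striatum under PTU was 4172 and 2436. The latter became 4147 with scaling to reference genes and 3675 without a filter on low counts, and both became 2419 and 1457 with a mean above 100. With only genes of little shared sequence refitted (chosen after seeing the data), 1631 were large in WAT and 1809 in striatum. With WAT replicates 2 and 3 alone, which are low in muscle RNA (also chosen after seeing the data), the counts were 3769 and 2609, and hormone-handling genes 5 and 7. The 5 and 6 hormone-handling genes became 3 and 10 with scaling to reference genes, and 3 in WAT with a log2 minimum of 4. At 24 h, where 4095 and 2632 genes and 4 and 8 hormone-handling genes were large, scaling to reference genes gave 4464 in striatum, no filter gave 6691 in WAT, a mean above 100 gave 2273, 1703 and 5 (hormone handling, striatum), and little shared sequence 1606 in WAT. Leaving out each library in turn gave 3960 to 4335 and 2234 to 2524 genes and 5 and 6 to 8 hormone-handling genes under PTU, and 3847 to 4259 and 2557 to 2706 genes and 4 and 7 to 10 hormone-handling genes at 24 h. Where a cause is not named by the setting itself, the cause was not tested.

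No paired analysis was possible because the PTU groups share only replicate number 3. At 24 h the fit with the replicate number as a block gave 4097 genes large in WAT and 2628 in striatum, and libraries with the same number had correlated deviations of -0.021 to 0.019, with none closest to its own number. Depth limits genes near 0: in striatum, the shallower tissue, a gene without a count can lie at up to 3 counts over both libraries.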
